A study of Mus musculus with 18 samples.

Results

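The growth of the normal mouse heart was followed from 2 weeks to 1 month of age in 6 wild type (WT) hearts, 3 at each age, out of the 18 hearts of a study of the lamin A/C gene, Lmna. The hearts were chosen by genotype and age. Their read counts were joined gene by gene across 2 count tables, since each age was deposited in a table of its own. Age and table therefore cannot be told apart in any comparison of WT hearts alone. The WT mice carried no targeted Lmna allele and were littermates from a C57BL/6 colony. For 1 further comparison, 6 Lmna-/- hearts of the same ages were used, 3 per age, from mice homozygous for the targeted allele Lmna tm1Stw in every cell. Whole hearts were taken, so that RNA of all cell types was read together. Fewer cells of a type and less RNA per cell cannot be told apart in such samples. The sex of the mice and any relation between hearts of the same number were not given in the sources used here. Per the study's methods each heart was sequenced on its own, and the p-values measure the spread between these hearts.

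Before birth and for a few days after it, heart muscle cells of the mouse grow in number by dividing. They then leave the cell cycle, and the heart grows mainly as its muscle cells enlarge. Over the first weeks the muscle also exchanges fetal forms of sarcomere proteins and ion channels for adult ones, forms its transverse tubules, turns from glucose towards fatty acids as a fuel, and settles into a more sparsely renewed matrix. Non-muscle cells, among them fibroblasts and endothelial cells, go on dividing for longer. Weaning, when milk with its high fat content gives way to solid food, falls between 2 weeks and 1 month.

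The study's methods name 1 library preparation for all hearts, a stranded kit for total RNA with depletion of ribosomal RNA. The labels name that kit and a second one, TruSeq RNA Sample Prep, without saying which served which heart. Transcripts without a poly(A) tail and ribosomal RNA are the classes on which such kits differ, and the part of the kit in their values was not tested. Libraries held between 12776558 and 24049579 counted reads. Genes of the mitochondrial genome took 68.2 to 70.44% of the reads at 2 weeks and 57.55 to 59.47% at 1 month. Processed pseudogenes differed between the tables as well, with 0.09997 to 0.111% against 0.02323 to 0.0263%. Both classes were left out, which left 3922334 to 9738689 reads of nuclear genes per heart. Values are CPM (counts of a gene relative to all these reads in its library), scaled by TMM factors and listed in the order of replicates 1, 2 and 3. A count of 3, the limit that a count of 0 allows, equalled 0.317 to 0.741 CPM depending on the heart and covers counting error only. The targeted gene of the study was read in all 6 WT hearts, Lmna having 143, 116 and 116 CPM at 2 weeks and 94.97, 104 and 104 CPM at 1 month (log2 fold change -0.31, SE 0.096, adjusted p = 0.0163). That call was lost without WT 2 weeks replicate 1 and with Xist reads as a covariate.

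The markers of heart muscle cells summed to 152800 to 183300 CPM at 2 weeks and 157600 to 180100 CPM at 1 month, and the ages overlapped. One library stood apart. WT 2 weeks replicate 2 held 337 CPM of the 10 thymus markers, where the other WT hearts held 5.83 to 15.01 CPM, and 105 CPM of the 11 markers of T and NK cells, against 3.43 to 6.63 CPM. Rag1, which cuts the antigen receptor genes of immature lymphocytes, stood at 184 CPM there and at 0 to 3.49 CPM elsewhere. The same heart had the lowest sum of atrial markers, 163 CPM, and had 741 CPM of Xist, against 1.29 and 1.37 CPM in the other 2-week WT hearts. At 1 month Xist stood at 283 and 450 CPM in replicates 1 and 3 and at 0.175 CPM in replicate 2. High Xist was thus not shared evenly between the ages. At 2 weeks it lay in the heart with thymus markers, so that an Xist covariate cannot tell them apart at that age. Liver markers reached 53.6 CPM in WT 1 month replicate 1, and lung markers 24.95 CPM in replicate 3. Results that rest on the second 2-week heart are therefore given with and without it, and the part of the admixed reads in other results was not tested.

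**Figure D1:**
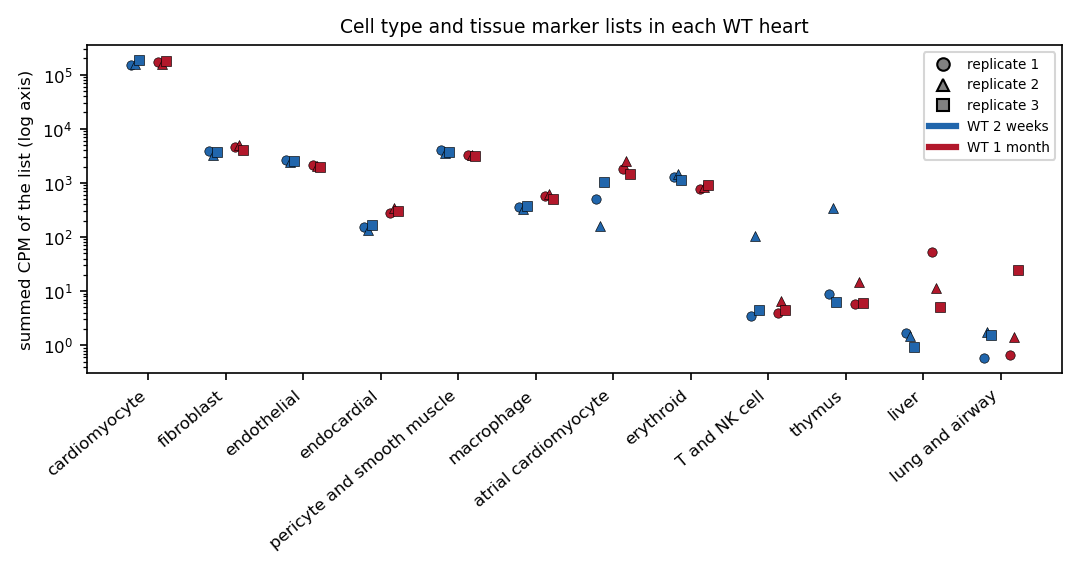
Summed CPM (vertical log axis) of 12 marker lists in each WT heart, with 2-week hearts in blue, 1-month hearts in red and a symbol for each replicate number. Thymus and T cell markers are high in a single 2-week heart, at 337 and 105 CPM, and heart muscle markers overlap between the ages.

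Between 2 weeks and 1 month, 4845 of 12457 nuclear genes tested (38.9%) changed in WT hearts by edgeR's quasi-likelihood test, at a Benjamini-Hochberg adjusted p under 0.05. Of these DEGs, 2547 rose (20.4% of the genes tested) and 2298 fell (18.4%). Most changes were small, with a median size of 0.57 on the log2 scale among DEGs. At least a 2-fold change was found for 360 genes that rose and 439 that fell, and at least a 4-fold change for 29 and 89. The 2-week and 1-month values did not overlap for 6150 genes (49.4%). The shares of 38.9, 20.4 and 18.4% are the background against which the gene groups below are read. Protein-coding genes made up 4692 of the DEGs (39.7% of 11824 tested), and long intergenic and antisense RNAs 58 (25.3% of 229).

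**Figure D2:**
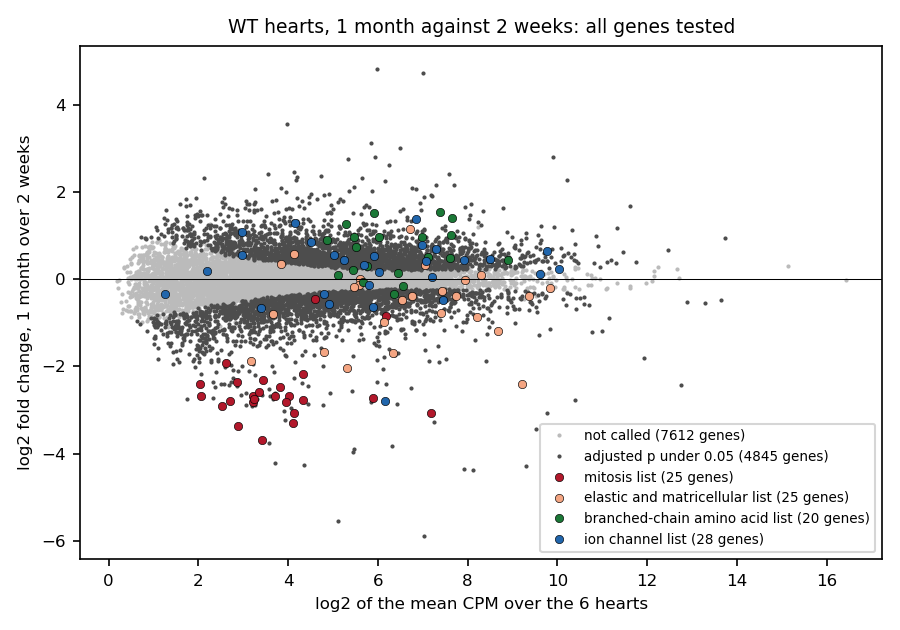
Log2 fold change of every gene tested (vertical axis, 1 month over 2 weeks) against the log2 of its mean CPM over the 6 WT hearts, with DEGs in dark grey and 4 gene lists in colour. The 25 tested genes of mitosis (red) lie below 0, as do most matricellular genes (orange), while most genes of branched-chain amino acid breakdown (green) lie above 0.

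Genes of cell division showed the deepest and most uniform fall. All 25 tested genes of mitosis and cytokinesis fell, with a median log2 fold change of -2.68 against -0.001 over all genes tested. Individual falls ranged from 1.36-fold for Cenpa, a centromere histone, to 12.8-fold for Hmmr, a spindle protein. The summed level of the 35 listed genes was 913, 1167 and 868 CPM at 2 weeks and 158, 230 and 184 CPM at 1 month, a 5.15-fold difference of the means. Without WT 2 weeks replicate 2, the heart with thymus markers and the highest sum, it was 4.67-fold and the 25 genes were still called. The 10 genes that missed the minimum of more than 5 counts in every heart also read lower at 1 month.

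The promoters of 6 of these genes are shown because cell cycle promoters commonly carry the CCAAT box, bound by NF-Y, and the cell cycle genes homology region (CHR), bound by the DREAM and MMB complexes. In resting cells DREAM represses such genes, and in dividing cells MMB and FOXM1 activate them. The stretches are the 120 bases before the RefSeq start of each gene (GRCm38.p6), read in the direction of transcription. Capitals mark the CCAAT box, which reads ATTGG where it lies on the opposite strand, and the CHR core TTTGAA, which then reads TTCAAA. Cdk1, the kinase that drives entry into mitosis (chr10:69352913-69353032, minus strand), and its cyclin partner Ccnb2 (chr9:70421555-70421674, minus strand) come first. They are followed by Cdc20 (chr4:118437344-118437463, minus strand) and Ube2c (chr2:164769809-164769928, plus strand), which serve the ubiquitin ligase that ends mitosis. Mki67 (chr7:135716380-135716499, minus strand) encodes a protein that coats mitotic chromosomes and Anln (chr9:22389207-22389326, minus strand) a scaffold of the cleavage furrow.
Cdk1: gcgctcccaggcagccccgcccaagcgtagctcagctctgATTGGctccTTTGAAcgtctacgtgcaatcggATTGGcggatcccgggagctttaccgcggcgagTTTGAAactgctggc
Ccnb2: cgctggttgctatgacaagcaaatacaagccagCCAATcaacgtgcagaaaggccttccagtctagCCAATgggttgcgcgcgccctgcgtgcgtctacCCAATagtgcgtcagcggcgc
Cdc20: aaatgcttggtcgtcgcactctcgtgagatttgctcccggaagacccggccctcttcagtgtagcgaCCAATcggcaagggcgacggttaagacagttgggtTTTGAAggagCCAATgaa
Ube2c: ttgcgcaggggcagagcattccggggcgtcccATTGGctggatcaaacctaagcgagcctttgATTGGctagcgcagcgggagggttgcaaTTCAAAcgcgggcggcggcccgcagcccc
Mki67: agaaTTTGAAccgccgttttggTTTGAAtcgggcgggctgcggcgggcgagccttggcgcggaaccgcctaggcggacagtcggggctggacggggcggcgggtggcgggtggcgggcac
Anln: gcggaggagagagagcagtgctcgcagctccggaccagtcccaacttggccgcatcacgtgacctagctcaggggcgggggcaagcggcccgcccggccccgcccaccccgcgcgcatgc

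In these windows Cdk1 had 2 CCAAT boxes and 2 CHR cores, Ccnb2 had 3 and 0, Cdc20 and Ube2c each had 2 and 1, Mki67 had 0 and 2, and Anln had 0 of each. All 6 genes fell, Anln by 2.18 on the log2 scale. The RefSeq table held promoters for 31 of the 35 listed mitosis genes, 33 in all. Within the 250 bases before the start, CCAAT lay on either strand in 25 of the 33 (75.8%), against 34.7% of the 12294 promoters of tested genes. TTTGAA lay in 11 (33.3%) against 10.4%. The E2F sites TTTGGCGC, TTTCCCGC and TTTCGCGC lay in 1 (3.03%) against 2.78%. For the DNA replication list the shares over 50 promoters were 52% for CCAAT, 14% for TTTGAA and 22% for the E2F sites. Over all 32851 promoters of the table they were 33.8, 16 and 1.53%. A raised share of CCAAT was not confined to cell cycle lists. For clock genes, a list treated below, CCAAT lay in 14 of 24 promoters (58.3%), and TTTGAA and the E2F sites in 0. Matches were counted wherever the letters stood, overlaps included, and a window without a match says only that these letters are not in it.

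Mki67 read at 224, 319 and 243 CPM at 2 weeks and 17.7, 46.8 and 29.4 CPM at 1 month, so that the highest 1-month heart lay far below the lowest 2-week heart (log2 fold change -3.07, SE 0.22, adjusted p = 3.59e-08). Cdk1 had 19.8, 15.3 and 14.02 CPM at 2 weeks and 1.13, 3.49 and 2.43 CPM at 1 month (log2 fold change -2.81, SE 0.26, adjusted p = 7.24e-07). Ccna2, the cyclin of S and G2 phase, had 32.7, 35.1 and 26.1 CPM at 2 weeks and 2.75, 4.19 and 4.02 CPM at 1 month (log2 fold change -3.07, SE 0.18, adjusted p = 5.15e-09). In each of the 3 genes the replicates of an age differed by less than the ages did. Top2a, which untangles replicated DNA, fell by 2.72 on the log2 scale from 87.8, 142 and 82.6 CPM at 2 weeks to 10.4, 22.3 and 14.6 CPM at 1 month. Ube2c read at 15.7, 14.3 and 10.2 CPM at 2 weeks and 1.13, 1.75 and 1.06 CPM at 1 month (log2 fold change -3.38, SE 0.28, adjusted p = 1.63e-07). Hmmr was close to the floor of counting in 2 of the 1-month hearts, with 23.3, 20.2 and 15.8 CPM at 2 weeks and 0.972, 3.49 and 0.634 CPM at 1 month (log2 fold change -3.68, SE 0.34, adjusted p = 5.91e-07). The spindle assembly factor Tpx2 had 27.97, 36.5 and 29.6 CPM at 2 weeks and 2.75, 4.01 and 2.85 CPM at 1 month (log2 fold change -3.29, SE 0.18, adjusted p = 2.71e-09). Outside the filter, the kinetochore gene Nuf2, chosen after its values were seen, read at 14.3, 16.8 and 12.3 CPM at 2 weeks and 0.324, 1.22 and 0.74 CPM at 1 month.

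**Figure D3:**
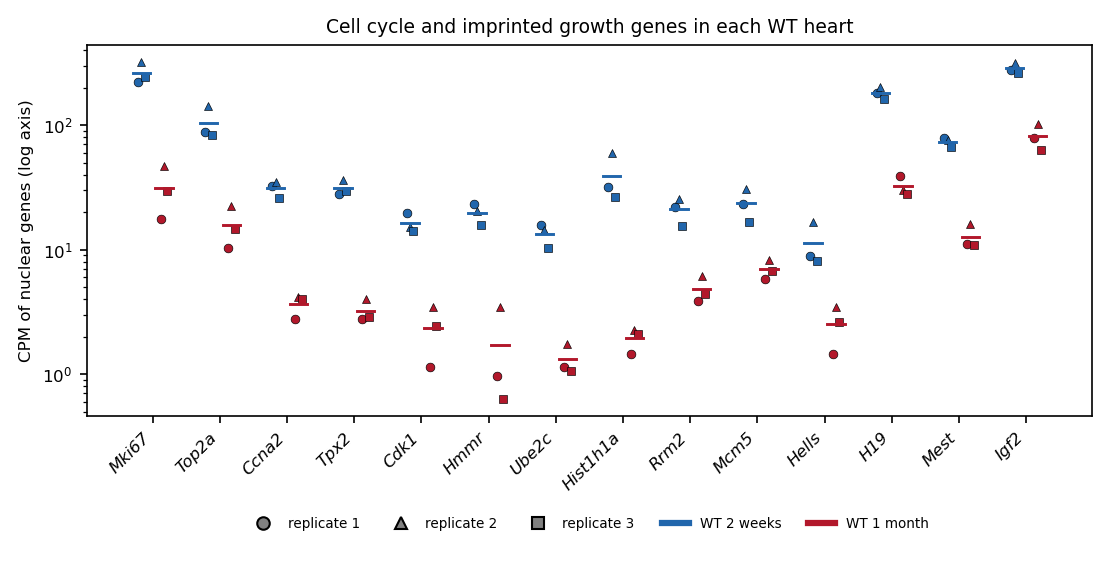
CPM of 14 cell cycle and imprinted growth genes (log axis) in each WT heart, 2-week hearts in blue and 1-month hearts in red, with bars at the group means. Every 1-month value lies below every 2-week value of the same gene.

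The machinery of DNA replication fell less steeply. Of 38 tested genes 29 fell and none rose, with a median log2 fold change of -0.78. Without WT 2 weeks replicate 2 the count was 26. The largest falls were those of Rrm2, a subunit of ribonucleotide reductase (21.98, 25.7 and 15.5 CPM at 2 weeks and 3.89, 6.11 and 4.44 CPM at 1 month, log2 fold change -2.12, SE 0.22, adjusted p = 1.53e-06), Uhrf1, which recruits the maintenance DNA methylase (-1.87 on the log2 scale, a call lost with robust = TRUE in edgeR), and Mcm5, part of the replicative helicase (-1.74). The values of Rrm2 did not overlap between ages. Of 23 tested histone genes that are transcribed with replication, a list added after their values were seen, 20 fell and none rose, with a median of -2.37. Hist1h1a, a linker histone, had 31.97, 59.2 and 26.7 CPM at 2 weeks and 1.46, 2.27 and 2.11 CPM at 1 month (log2 fold change -4.26, SE 0.32, adjusted p = 4.86e-08), and its highest 2-week value was that of the heart with thymus markers. Without that heart 19 histone genes were called, at a median of -2.07. Hist1h1c, another linker histone, read at 88.1, 103 and 71.9 CPM at 2 weeks and 82.3, 90.6 and 92.6 CPM at 1 month and was not called (adjusted p = 0.877). Such histone transcripts lack the usual poly(A) tail, and 14 of the 23 share at least 20% of their sequence with other genes, so that reads between near-identical copies are uncertain.

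Inhibitors of the cell cycle did not move as a group. Of 12 tested, 2 rose and 5 fell, with 3 falling when WT 2 weeks replicate 1 was left out. Cdkn2c, an inhibitor of the G1 kinases, fell with the genes it restrains (22.7, 25.9 and 22.7 CPM at 2 weeks and 12.5, 10.3 and 11.3 CPM at 1 month, log2 fold change -1.05, SE 0.14, adjusted p = 2.08e-05). Rbl1 (p107), a pocket protein found in cycling cells, fell by 1.95 times. Rbl2 (p130), the pocket protein of the DREAM complex in resting cells, rose from 54.2, 57.3 and 58.04 CPM at 2 weeks to 84.9, 71.7 and 79.7 CPM at 1 month (log2 fold change 0.48, SE 0.092, adjusted p = 0.000656). Btg2, an antiproliferative gene, rose with a log2 fold change of 0.65, a call lost in a fit over 12 hearts of both genotypes and with robust = TRUE.

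Imprinted genes, many of which promote fetal growth and are known to be shut down together after birth, fell in 13 of 18 cases tested and rose in 1, with a median of -0.77. H19, a long non-coding RNA, had 181, 201 and 161 CPM at 2 weeks and 39.2, 30.02 and 28.01 CPM at 1 month (log2 fold change -2.49, SE 0.12, adjusted p = 6.18e-10). Its neighbour Igf2, the fetal insulin-like growth factor, had 279, 315 and 261 CPM at 2 weeks and 78.4, 102 and 63.4 CPM at 1 month (log2 fold change -1.82, SE 0.14, adjusted p = 4.86e-08). The model of Igf2 shares 61.9% of its sequence with another gene model, so that its level is uncertain. Mest, an enzyme of growing mesoderm, had 78.5, 76.04 and 66.7 CPM at 2 weeks and 11.02, 16.1 and 10.9 CPM at 1 month (log2 fold change -2.56, SE 0.14, adjusted p = 1.31e-09). In all 3 genes the ages were separate. Peg13 was the imprinted RNA that rose (0.45). Gnas fell by 1.99 on the log2 scale, but other annotated genes lie over it and reads from shared regions were not counted. Among RNA binding proteins and chromatin factors of fetal growth, 8 of 14 fell and 2 rose. Hells, a chromatin remodeller of dividing cells, fell by 2.09 on the log2 scale, the transcription factor Sox11 by 1.83 and Igf2bp3, which binds the Igf2 message, by 1.12. Ezh1, the histone methylase of resting cells, rose (0.54).

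Genes of the extracellular matrix were called lower more often than higher. Of 16 tested interstitial collagens 9 fell and 2 rose, with a median of -0.45. WT 1 month replicate 2 stood apart, with a summed level of 6214 CPM against 3956 and 3938 CPM in the other 1-month hearts and 6439 to 7580 CPM at 2 weeks. Without it 13 fell and the median was -0.73. Col3a1, a main fibrillar collagen of the heart, read at 3205, 2695 and 3028 CPM at 2 weeks and 1332, 2212 and 1269 CPM at 1 month (log2 fold change -0.89, SE 0.17, adjusted p = 0.000634). Col1a1 had 757, 631 and 712 CPM at 2 weeks and 386, 732 and 431 CPM at 1 month, overlapped between ages and was not called (adjusted p = 0.055). It was called lower in 10 alternatives, among them those without a filter and without WT 1 month replicate 2. Col11a1 and Col12a1 fell, with log2 fold changes of -1.196 and -0.98, and Col8a1 rose (0.69). Among genes that fold and crosslink collagen, 11 of 26 fell and 3 rose. Fkbp10, a collagen chaperone, fell by 1.27 on the log2 scale and Mmp14, a membrane-bound protease of collagen, by 1.10. Timp3, which inhibits such proteases, rose (0.94).

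Elastic fibre and matricellular genes included the steepest falls of the matrix. Of 25 tested, 15 fell and 3 rose, and without WT 2 weeks replicate 2 only 1 was called higher. Postn (periostin), secreted by activated and developmental fibroblasts, had 1051, 1024 and 922 CPM at 2 weeks and 162, 241 and 169 CPM at 1 month (log2 fold change -2.39, SE 0.14, adjusted p = 2.71e-09). All 3 hearts of 1 month lay at a fraction of the 2-week level. Fbn2, the fetal fibrillin, had 62.9, 66.7 and 61.9 CPM at 2 weeks and 16.2, 15.4 and 15.01 CPM at 1 month (log2 fold change -2.04, SE 0.103, adjusted p = 9.65e-10). Mfap2, a microfibril protein, fell by 1.88 and Eln (elastin) by 0.86 on the log2 scale, the call of Eln being lost by DESeq2 and with robust = TRUE. Fbln1 (fibulin) went the other way, with 66.1, 55.1 and 71.5 CPM at 2 weeks and 151, 146 and 137 CPM at 1 month (log2 fold change 1.16, SE 0.098, adjusted p = 2.09e-07). Basement membrane genes fell in 9 and rose in 3 of 17 cases. The laminin chain Lamb1 fell (-0.72) while Lamb2, its counterpart in mature basement membranes, rose (0.58), as did Lama5 (74.1, 79.2 and 88.2 CPM at 2 weeks and 165, 168 and 187 CPM at 1 month, log2 fold change 1.11, SE 0.093, adjusted p = 1.93e-07). Gsn (gelsolin), an actin-severing protein abundant in fibroblasts, was 1 of the genes of high level that rose most, with 434, 334 and 451 CPM at 2 weeks and 2174, 1982 and 1761 CPM at 1 month (log2 fold change 2.28, SE 0.13, adjusted p = 2.71e-09). The fibroblast marker list as a whole had 2 genes called each way out of 10, with 1 higher and 4 lower when WT 2 weeks replicate 2 was left out and 2 and 4 without WT 1 month replicate 2.

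**Figure D4:**
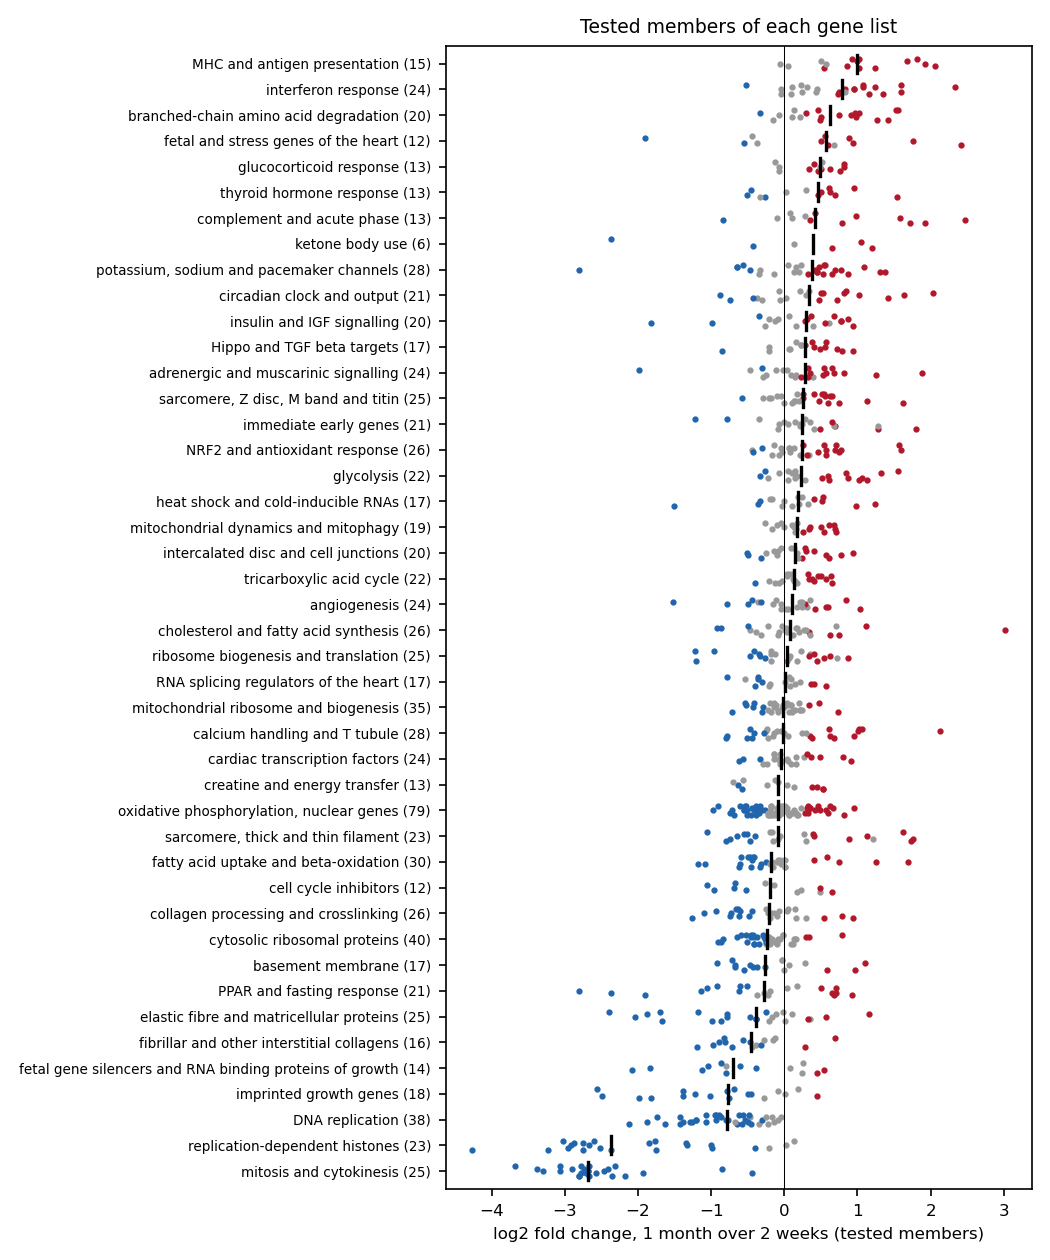
Log2 fold change (horizontal axis, 1 month over 2 weeks) of the tested members of each list, with the number tested in brackets, sorted by the median (black bar). Members called higher are red, called lower blue and not called grey, and mitosis and histone lists lie lowest, at medians of -2.68 and -2.37.

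Fuel genes changed in a way that differed by pathway. Genes induced by fatty acids and fasting through the nuclear receptor PPAR alpha were mixed, with 9 of 21 called lower and 6 higher, but the steep changes were falls. Angptl4, a secreted inhibitor of lipoprotein lipase, had 112, 129 and 61.7 CPM at 2 weeks and 11.5, 20.8 and 11.5 CPM at 1 month (log2 fold change -2.81, SE 0.24, adjusted p = 2.77e-07). Ucp2, a carrier of the inner mitochondrial membrane, had 259, 271 and 249.7 CPM at 2 weeks and 58.02, 88.8 and 62.05 CPM at 1 month (log2 fold change -1.905, SE 0.13, adjusted p = 1.63e-08). Both genes were lower in every 1-month heart. Pdk4, which blocks pyruvate oxidation, fell from 1239, 1502 and 1035 CPM at 2 weeks to 535, 489 and 684 CPM at 1 month (log2 fold change -1.14, SE 0.14, adjusted p = 1.24e-05), and Pdk2, a kinase of the same enzyme complex, rose (0.71). The receptor gene Ppara itself rose from 44.4, 35.8 and 39.6 CPM at 2 weeks to 66.9, 57.8 and 68.6 CPM at 1 month (log2 fold change 0.68, SE 0.11, adjusted p = 9.67e-05). The related receptors Esrrg and Esrrb rose as well (0.705 and 0.92), and Ppargc1a, their coactivator, read at 226, 202 and 229.9 CPM at 2 weeks and 207, 182 and 185 CPM at 1 month and was not called (adjusted p = 0.0931). Ppargc1a was called lower in 5 alternatives, among them scaling by library size alone.

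Genes of fatty acid uptake and beta-oxidation fell in 14 and rose in 5 of 30 cases, with a median of -0.18. Lpl, the lipoprotein lipase that releases fatty acids at the vessel wall, was higher in every 1-month heart than in any 2-week heart. It had 1481, 1447 and 1516 CPM at 2 weeks and 5427, 4266 and 4643 CPM at 1 month (log2 fold change 1.69, SE 0.12, adjusted p = 3.52e-08). Fabp3, the fatty acid carrier of heart muscle, had 3069, 2739 and 2707 CPM at 2 weeks and 1289, 1243 and 1233 CPM at 1 month (log2 fold change -1.18, SE 0.11, adjusted p = 4.39e-07), with 37.3% of its sequence shared with other genes. Cpt1a, the form of the mitochondrial gatekeeper found in fetal heart and liver, fell from 162, 168 and 149.7 CPM at 2 weeks to 92.7, 113 and 107 CPM at 1 month (log2 fold change -0.61, SE 0.092, adjusted p = 7.58e-05). Cpt1b, the form of adult muscle, fell as well, from 3.85, 4.69 and 4.26 CPM at 2 weeks to 1.62, 1.57 and 2.54 CPM at 1 month (log2 fold change -1.08, SE 0.29, adjusted p = 0.00741), but 79.7% of its sequence is shared with another gene model and its level is uncertain. Etfa, which passes electrons from beta-oxidation to the respiratory chain, rose (1.25). Nuclear genes of oxidative phosphorylation were called lower in 25 and higher in 16 of 79 cases, at a median of -0.085, and 9 were higher when WT 2 weeks replicate 3 was left out. Cox8a, Cox6a1 and Cox6b1, small subunits of cytochrome oxidase, fell (-0.98, -0.91 and -0.74). Uqcrq and Uqcrfs1 of complex III and Atp5e of the ATP synthase rose (0.82, 0.67 and 0.95).

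Genes that use ketone bodies, amino acids and glucose were called higher more often than lower. Oxct1, which starts the breakdown of ketone bodies, had 638, 515 and 634 CPM at 2 weeks and 1429, 1309 and 1358 CPM at 1 month (log2 fold change 1.195, SE 0.11, adjusted p = 4.76e-07). Bdh1, the enzyme before it, missed the filter and was chosen after its values were seen. It read at 0.143, 0.741 and 0.762 CPM at 2 weeks and 12.97, 16.4 and 23.9 CPM at 1 month. Of 20 genes that degrade branched-chain amino acids 14 rose and 1 fell, with a median of 0.62. Ppm1k, the phosphatase that activates the branched-chain dehydrogenase, had 86.6, 73.1 and 93.8 CPM at 2 weeks and 298, 205 and 246 CPM at 1 month (log2 fold change 1.56, SE 0.13, adjusted p = 1.35e-07). Bckdk, the kinase that blocks that dehydrogenase, fell by 1.26 times, a call lost without WT 2 weeks replicate 1. Ivd and Pcca, enzymes further down the pathway, rose by 2.66 and 2.88 times, from 113, 98.3 and 117 CPM at 2 weeks to 337, 246 and 292 CPM at 1 month for Ivd.

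Glycolysis had 10 genes higher and 2 lower of 22 tested. Hk2, the hexokinase of insulin-sensitive muscle, had 169, 151 and 192 CPM at 2 weeks and 428, 401 and 452 CPM at 1 month (log2 fold change 1.32, SE 0.101, adjusted p = 6.34e-08). Slc2a4 (GLUT4), the glucose carrier of the same tissues, had 163, 150.4 and 158 CPM at 2 weeks and 287, 245 and 332 CPM at 1 month (log2 fold change 0.87, SE 0.105, adjusted p = 8.95e-06). Pfkfb2, which makes the activator of phosphofructokinase, rose (1.13). The tricarboxylic acid cycle had 9 genes higher and 1 lower of 22. Among genes of fat and sterol synthesis 5 of 26 rose and 3 fell, and the share called, 30.8%, was below the background. Scd1, the fatty acid desaturase of adult tissues, had 20.7, 17.3 and 20.9 CPM at 2 weeks and 110, 164 and 208 CPM at 1 month (log2 fold change 3.02, SE 0.19, adjusted p = 7.4e-09), Fasn (fatty acid synthase) rose (1.12) and Scd2, the desaturase of early life, fell (-0.92). Scd1 and Fasn are abundant in fat cells. Of the 8 fat cell markers, 7 missed the filter, and 6 of those 7 were called higher in the fit without a filter. Cfd (adipsin), 1 of the 6 and chosen after its values were seen, read at 0.143, 0 and 0.305 CPM at 2 weeks and 7.13, 11.7 and 5.603 CPM at 1 month. Fabp4, the 1 tested marker, fell (-0.68), but it is also on the list of endothelial markers, of which 6 of 10 fell. The part of fat cells in these values was not tested.

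**Figure D5:**
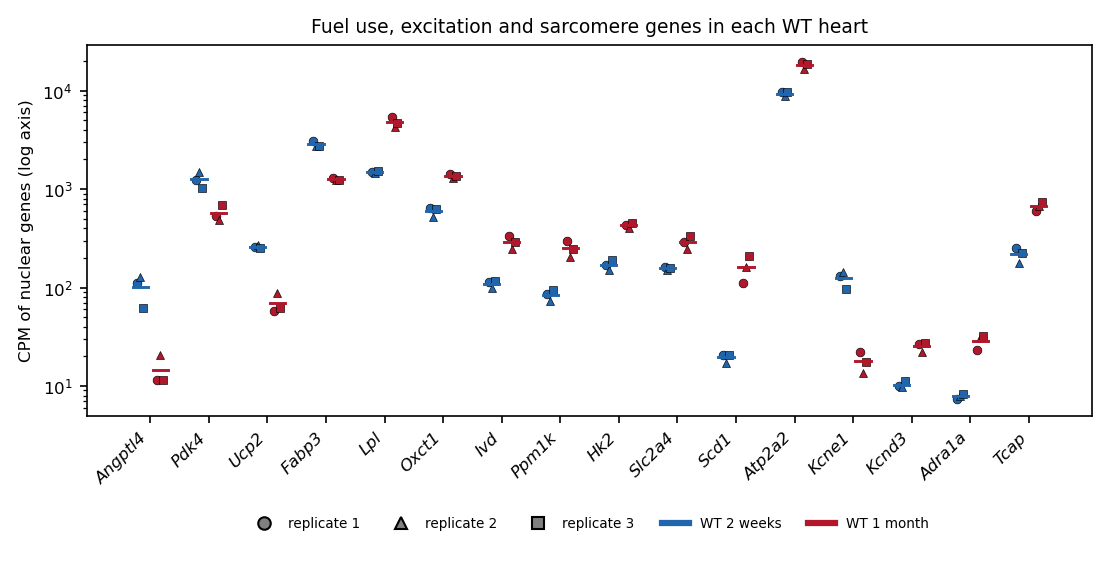
CPM of 16 genes of fuel use, calcium handling, channels and sarcomere (log axis) in each WT heart, 2-week hearts in blue and 1-month hearts in red, with bars at the group means. Angptl4, Pdk4, Ucp2, Fabp3 and Kcne1 are lower in every 1-month heart, and the others higher.

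The protein-coding genes with the largest rises included several enzymes. Car3, a carbonic anhydrase of fat and slow muscle, had 2.43, 2.22 and 2.59 CPM at 2 weeks and 21.9, 40.8 and 24.8 CPM at 1 month (log2 fold change 3.56, SE 0.27, adjusted p = 5.84e-08). Ces1d, a lipid-cleaving esterase, had 10.6, 11.8 and 13.4 CPM at 2 weeks and 104, 98.3 and 109.9 CPM at 1 month (log2 fold change 3.12, SE 0.11, adjusted p = 5.83e-11). Ogdhl, which resembles a subunit of the oxoglutarate dehydrogenase, had 22.3, 14.8 and 25.1 CPM at 2 weeks and 142, 108 and 145 CPM at 1 month (log2 fold change 2.63, SE 0.15, adjusted p = 2.74e-09). This ranking took only genes whose ages did not overlap, so that the separation of these enzymes follows from the rule. Ptgds, the synthase of prostaglandin D, rose by 6.82 times and Pcx, pyruvate carboxylase, by 5.12 times. Armc2 and 2310002L09Rik rose by 5.31 and 5.21 times.

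Genes of the sarcomere were already expressed at a high level, and the filament genes split both ways, with 7 higher and 8 lower of 23. Myh6, the adult myosin heavy chain of the mouse heart, read at 33070, 30400 and 33320 CPM at 2 weeks and 40660, 36740 and 41810 CPM at 1 month, not called (adjusted p = 0.0925). It was called higher in 8 alternatives, among them DESeq2, robust = TRUE and the fit without a filter. Myh7, the fetal chain, had 35.7, 37.3 and 53.2 CPM at 2 weeks and 74.7, 61.1 and 96.6 CPM at 1 month and rose (log2 fold change 0.88, SE 0.16, adjusted p = 4e-04), a call lost in the fit over 12 hearts of both genotypes. Acta1, skeletal actin, rose from 68.8, 41.97 and 55.9 CPM at 2 weeks to 143, 232 and 198 CPM at 1 month (log2 fold change 1.76, SE 0.16, adjusted p = 6.62e-07), and Actc1, cardiac actin, fell (-0.47). Tnnt1, the slow skeletal troponin T, fell by 1.06 on the log2 scale and Tpm4, a tropomyosin of non-muscle cells, by 0.75. The fetal troponin I, Tnni1, missed the filter. Chosen after its values were seen, it read at 14.7, 24.7 and 11.4 CPM at 2 weeks and 1.297, 0.349 and 0.74 CPM at 1 month. Around the Z disc and M band 13 of 25 genes rose and 1 fell, and 3 fell without WT 1 month replicate 1. Tcap (telethonin), which anchors titin at the Z disc, had 249.6, 176 and 226 CPM at 2 weeks and 594, 678 and 745 CPM at 1 month (log2 fold change 1.63, SE 0.12, adjusted p = 6.77e-08). Flnc (filamin C), a crosslinker of actin, rose by 1.69 times. Ttn (titin) read at 73630, 82790 and 108000 CPM at 2 weeks and 83180, 83780 and 96340 CPM at 1 month and was not called (log2 fold change -0.006).

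Calcium handling genes rose in 10 and fell in 7 of 28 cases. The calcium pump of the sarcoplasmic reticulum, Atp2a2 (SERCA2), had 9607, 8765 and 9663 CPM at 2 weeks and 19380, 16430 and 18490 CPM at 1 month (log2 fold change 0.95, SE 0.13, adjusted p = 2.49e-05). Its inhibitor Pln (phospholamban) had 6097, 5818 and 6008 CPM at 2 weeks and 8316, 5949 and 6997 CPM at 1 month, with overlapping ages, and was not called (adjusted p = 0.155). Ryr2, the release channel, had 4123, 3990 and 4926 CPM at 2 weeks and 7052, 6452 and 7292 CPM at 1 month (log2 fold change 0.67, SE 0.12, adjusted p = 0.00044). Hrc, a calcium-binding protein of the reticulum, rose by 2.04 times and Jph2 (junctophilin), which holds the transverse tubule next to the reticulum, by 1.53 times. Bin1, which shapes the tubule, was not called (-0.22, adjusted p = 0.274), and Cav3, the caveolin of muscle, fell (-0.79).

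Ion channel genes rose in 15 and fell in 5 of 28 cases, with a median of 0.37. Kcne1, the accessory subunit of the slow delayed rectifier, had 131, 145 and 97.7 CPM at 2 weeks and 22.2, 13.6 and 17.6 CPM at 1 month (log2 fold change -2.8, SE 0.16, adjusted p = 2.71e-09) and was the channel gene that fell most. Among genes of the transient outward current, the main repolarising current of the adult mouse ventricle, Kcnd3, Kcnip2 and Kcnd2 rose and Kcna4 fell. Kcnd3 had 9.99, 9.88 and 11.1 CPM at 2 weeks and 26.7, 21.99 and 27.6 CPM at 1 month (log2 fold change 1.302, SE 0.14, adjusted p = 3.73e-06), while its accessory subunit Kcnip2 rose by 1.71 times and Kcnd2 by 1.44 times. Kcna4, a further channel of the transient outward current, had a log2 fold change of -0.65. Kcnj2, which carries much of the resting current, read at 146, 138 and 149 CPM at 2 weeks and 170, 149 and 132 CPM at 1 month and was not called. Kcnj3, an atrial channel opened by acetylcholine, rose (1.38) and so did Hcn4, the pacemaker channel (5.28, 4.69 and 4.88 CPM at 2 weeks and 11.5, 10.5 and 10.04 CPM at 1 month, log2 fold change 1.09, SE 0.19, adjusted p = 0.000298). Kcnv2, a silent subunit outside the filter and chosen after its values were seen, read at 0.571, 0.741 and 1.07 CPM at 2 weeks and 12.6, 8.55 and 11.3 CPM at 1 month.

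At the intercalated disc 8 of 20 genes rose and 3 fell, with 5 rising when WT 2 weeks replicate 1 or 3, or WT 1 month replicate 3, was left out. Gja1 (connexin 43), the gap junction protein of the ventricle, had 499.7, 493 and 537 CPM at 2 weeks and 747, 803 and 782 CPM at 1 month (log2 fold change 0.61, SE 0.093, adjusted p = 8.69e-05), and Gjc1 (connexin 45), of fetal heart and nodes, fell (44.4, 44.7 and 42.6 CPM at 2 weeks and 31.1, 27.9 and 32.7 CPM at 1 month, log2 fold change -0.51, SE 0.102, adjusted p = 0.000843). The desmosome genes Dsp and Dsg2 rose by 1.71 and 1.93 times. Of 24 genes of adrenergic and muscarinic signalling 12 rose and 2 fell. Adra1a, the alpha adrenergic receptor of heart muscle, had 7.42, 7.901 and 8.38 CPM at 2 weeks and 23.2, 31.1 and 32.4 CPM at 1 month (log2 fold change 1.88, SE 0.16, adjusted p = 2.72e-07), each 1-month value being above each 2-week value. Thyroid hormone, which rises after birth and matures the heart, acts through Thra, which fell (-0.26, a call lost without WT 2 weeks replicate 1), and Thrb, which rose (26.4, 22.96 and 35.8 CPM at 2 weeks and 48.8, 41.4 and 48.7 CPM at 1 month, log2 fold change 0.69, SE 0.14, adjusted p = 0.000842). Its target Thrsp rose by 2.92 times, and 7 of 13 genes of the response rose in all, with 3 that fell, or 1 without WT 2 weeks replicate 1. Transcription factors of the heart were called in 8 of 24 cases, 5 higher and 3 lower, with Tbx5 and Tead1 among those that rose (0.91 and 0.804) and Gata6 among those that fell (-0.61). That share, 33.3%, was below the background. Without WT 2 weeks replicate 1 or WT 1 month replicate 3 the lower count was 1, and without WT 2 weeks replicate 2 the higher count was 3.

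Atrial genes rose in 7 of 8 cases tested. The natriuretic peptide Nppa had 39.96, 16.1 and 119.9 CPM at 2 weeks and 324, 385 and 261 CPM at 1 month (log2 fold change 2.42, SE 0.38, adjusted p = 0.000132), and the summed atrial list 498, 163 and 1038 CPM at 2 weeks and 1820, 2500 and 1433 CPM at 1 month. The 2-week hearts themselves spread over several fold, the lowest being the heart with thymus markers, and without it the difference of the means was 2.497-fold in place of 3.39-fold. DESeq2 called 4 of the 8. The calcium pump inhibitor Sln and the light chain Myl4, both of atrial muscle, had log2 fold changes of 2.13 and 1.74, and both calls were lost by DESeq2 and with robust = TRUE, as was that of Nppa with robust = TRUE. The study's methods say that the entire heart was used. The part of the share of atrium in these values was not tested.

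Antigen presentation genes rose in 11 of 15 cases tested, with none lower and a median of 0.99. Cd74, the invariant chain of MHC class II, had 9.85, 19.5 and 7.31 CPM at 2 weeks and 44.2, 41.5 and 44.5 CPM at 1 month (log2 fold change 1.93, SE 0.21, adjusted p = 3.03e-06). H2-Aa and H2-Eb1, chains of class II itself, rose by 3.502 and 4.19 times. In the 2-week group the heart with thymus markers was the highest for each of these genes, and without it 13 were called. Interferon-induced genes rose in 13 and fell in 1 of 24 cases, among them Oas2 (1.14, 1.73 and 1.52 CPM at 2 weeks and 6.32, 7.85 and 7.51 CPM at 1 month, log2 fold change 2.33, SE 0.28, adjusted p = 8.62e-06) and Irf7, the regulator of the response (1.596). Of 13 genes of complement and the acute phase 8 rose and 1 fell, Agt (angiotensinogen, -0.84), a call lost by DESeq2, with the Xist covariate, without the filter, and without WT 2 weeks replicate 1 or 3 or WT 1 month replicate 2 or 3. C3, the central complement component, had 61.8, 69.6 and 56.2 CPM at 2 weeks and 238, 252 and 216 CPM at 1 month (log2 fold change 1.92, SE 0.1, adjusted p = 1.1e-09). C4b rose by 5.51 times and shares 48.3% of its sequence with its neighbouring copy.

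Marker lists of other cell types moved in both directions. Macrophage markers were called higher in 6 of 10 cases and lower in none, with Cd163, the haemoglobin scavenger receptor of resident macrophages, at 10.3, 8.89 and 10.97 CPM at 2 weeks and 34.2, 36.3 and 32.4 CPM at 1 month (log2 fold change 1.75, SE 0.13, adjusted p = 5.29e-08), and Lyz2 (lysozyme) up by 3.07 times. Endothelial markers fell in 6 of 10 cases and rose in 1, Cldn5, a tight junction protein, falling from 45.7, 33.3 and 32.3 CPM at 2 weeks to 20.6, 10.8 and 15.96 CPM at 1 month (log2 fold change -1.24, SE 0.18, adjusted p = 6.22e-05), while the water channel Aqp1 rose (0.72). Aplnr, the apelin receptor of sprouting vessels, fell by 1.52 on the log2 scale. Endocardial markers rose in 3 of 4 cases, with Vwf (von Willebrand factor) at 84.2, 74.8 and 86.98 CPM at 2 weeks and 151, 201 and 185 CPM at 1 month (log2 fold change 1.12, SE 0.11, adjusted p = 7.14e-07). Of 8 erythroid genes 4 fell, and globin genes such as Hba-a1 (-1.26) share 75.5% of their sequence with copies.

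Clock genes were called in 13 of 21 cases, 10 higher, and were sensitive to single hearts, with 5 to 7 higher when any of the 3 WT 2-week hearts, or WT 1 month replicate 2 or 3, was left out. Nr1d1 (REV-ERB alpha), the repressor arm of the clock, had 22.1, 21.5 and 25.1 CPM at 2 weeks and 77.8, 114 and 91.8 CPM at 1 month (log2 fold change 2.04, SE 0.13, adjusted p = 1.51e-08). Dbp, an output gene, had 10.6, 7.901 and 10.97 CPM at 2 weeks and 13.8, 49.9 and 30.1 CPM at 1 month (log2 fold change 1.63, SE 0.32, adjusted p = 0.000817), with a wide spread at 1 month and a call lost with robust = TRUE. Arntl (BMAL1) read at 18.98, 20 and 18.9 CPM at 2 weeks and 32.7, 6.46 and 16.4 CPM at 1 month and was not called. The time of day at which hearts were taken was not given, so that its part was not tested. Cold-inducible Rbm3 fell from 105, 96.5 and 75.2 CPM at 2 weeks to 26.9, 35.1 and 34.5 CPM at 1 month (log2 fold change -1.51, SE 0.13, adjusted p = 2.33e-07). Of 40 genes of cytosolic ribosomal proteins 20 fell and 3 rose (1 rose without WT 2 weeks replicate 3), though 26 of them share sequence with pseudogenes or copies. Eef1a1, the elongation factor of growing cells, fell (-1.21, 49.8% shared) and Eef1a2, its form in adult muscle and brain, rose (619.7, 532 and 568 CPM at 2 weeks and 856, 783 and 878 CPM at 1 month, log2 fold change 0.55, SE 0.099, adjusted p = 0.000385).

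The 6 Lmna-/- hearts, from mice that develop cardiomyopathy, allowed a test of whether the change over age differed between the genotypes. Any difference between the tables that is common to both genotypes cancels in that test. The test compares changes over age and does not say at which age the genotypes differed. Of 12264 genes with more than 5 counts in all 12 hearts, 888 (7.24%) differed, the change in Lmna-/- hearts lying above that of WT for 332 and below it for 556. The count rested heavily on single hearts. Without WT 2 weeks replicate 2, the heart with thymus markers, it was 372 of 12445 genes (2.99%), 135 above and 237 below. It was 498 without Lmna-/- 2 weeks replicate 1, 518 and 558 without WT 1 month replicates 3 and 1, 550 without WT 2 weeks replicate 3, and 543 with Xist reads as a covariate. Among the WT DEGs 4794 could be tested and 594 differed. Of the 4794, 86.9% had the same sign in Lmna-/- hearts.

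Of 19 mitosis genes tested 11 differed (57.9%, against 7.24% of all genes), each with its change in Lmna-/- hearts above that in WT, and the list had a median log2 fold change of -2.69 in WT and -1.04 in Lmna-/- hearts. Of these, 10 had a smaller fall in Lmna-/- hearts, while Cenpa had a log2 fold change of -0.46 in WT and 0.475 in Lmna-/- hearts. A smaller fall does not by itself mean a higher level at 1 month. The study lists genes of division and replication, among them Cdk1, Plk1, Prc1 and Mcm5, as reduced by loss of Lmna already at the younger age. The part of a lower starting level in the smaller falls was not tested. Without the heart with thymus markers 7 of 19 differed, against 2.99% of all genes, and 6 and 7 differed without Lmna-/- 1 month replicate 2 and WT 1 month replicate 3. For Tpx2 the log2 fold change over age was -3.31 in WT and -1.41 in Lmna-/- hearts, a difference of 1.9 with SE 0.44 and adjusted p = 0.0163, a call lost without Lmna-/- 1 month replicate 2 or 3. DNA replication genes differed in 7 of 37 cases, all in the same direction, and in 4 when WT 2 weeks replicate 1 or 2, Lmna-/- 2 weeks replicate 1 or 3, or Lmna-/- 1 month replicate 2 or 3 was left out. Imprinted genes differed in 5 of 18 cases, each with the smaller fall in Lmna-/- hearts. The number was 3 without WT 2 weeks replicate 2 or 3, WT 1 month replicate 1, Lmna-/- 2 weeks replicate 1 or Lmna-/- 1 month replicate 2 or 3. For H19 the change was -2.5 in WT and -1.37 in Lmna-/- hearts, a difference of 1.13 with SE 0.203 and adjusted p = 0.00435.

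Beta-oxidation genes differed in 18 of 30 cases (60%), each with its change lower in Lmna-/- hearts, at a median log2 fold change of -0.198 in WT and -0.76 in Lmna-/- hearts. Without the heart with thymus markers 9 differed, and with Xist reads as a covariate 11. Oxidative phosphorylation genes differed in 24 of 79 cases, all in that direction, and in 9 without that heart. They differed in 11 to 15 cases without WT 2 weeks replicate 3, WT 1 month replicate 1 or 3, Lmna-/- 2 weeks replicate 1 or Lmna-/- 1 month replicate 1, and in 14 with the Xist covariate. Channel genes differed in 7 cases in that direction and 1 in the other, out of 28, and in 3 and 0 without the heart with thymus markers. Immediate early genes, which respond within minutes to stress and handling, differed in 9 of 21 cases, all lower, and in 4 without that heart. Without WT 1 month replicate 2 they differed in 5 cases lower and 2 higher, and without Lmna-/- 2 weeks replicate 1 in 5. None of the 24 interferon-induced genes, 14 antigen presentation genes or 40 ribosomal protein genes was called in this test, and at most 2 of a list were when a heart was left out.

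Some genes called in WT hearts above were not called over age within Lmna-/- hearts in the fit over 12 hearts. For Ogdhl the log2 fold change over age was 2.62 in WT and 0.32 in Lmna-/- hearts, a difference of -2.301 with SE 0.22 and adjusted p = 5.47e-05 (within Lmna-/- hearts adjusted p = 0.0999). For Hrc it was 1.01 in WT and -0.093 in Lmna-/- hearts, a difference of -1.104 with SE 0.16 and adjusted p = 0.00132 (within Lmna-/- hearts adjusted p = 0.544). Hcn4 changed by 1.08 in WT and -0.33 in Lmna-/- hearts, a difference of -1.41 with SE 0.22 and adjusted p = 0.00202 (within Lmna-/- hearts adjusted p = 0.0794). Adra1a changed by 1.86 in WT and 0.15 in Lmna-/- hearts, a difference of -1.71 with SE 0.31 and adjusted p = 0.00453 (within Lmna-/- hearts adjusted p = 0.588). Gsn and Fbn2 were called within Lmna-/- hearts too. Gsn changed by 2.26 in WT and 1.13 in Lmna-/- hearts, a difference of -1.14 with SE 0.22 and adjusted p = 0.00568 (within Lmna-/- hearts adjusted p = 3.01e-05). Fbn2 changed by -2.05 in WT and -0.98 in Lmna-/- hearts, a difference of 1.08 with SE 0.16 and adjusted p = 0.00183 (within Lmna-/- hearts adjusted p = 5.21e-06). Myh7 had the larger rise in Lmna-/- hearts, with changes of 0.87 in WT and 4.36 in Lmna-/- hearts, a difference of 3.49 with SE 0.62 and adjusted p = 0.00398. The differences of H19 and of these 7 genes were called with each of the 12 hearts left out and with the Xist covariate.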

How the data were processed

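Total RNA of whole hearts was sequenced from paired-end libraries depleted of ribosomal RNA. Per the labels and the study's methods, the authors aligned the reads to mm10 with STAR, collapsed the transcripts of a gene into a single model and counted uniquely mapped reads lying within its exons, leaving out ambiguous regions. The submitters' processing notes give STAR 2.3.1d, while the study's methods name another version. The deposited values are raw counts per Ensembl gene, in 1 table per age. The counting tool, annotation and strand setting were not given in the sources used here, so that reads of overlapping and antisense genes may be mixed.

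The tables were joined by gene ID, and 46574 of 47069 IDs (98.95%) were named from GENCODE M21. Mitochondrial-genome genes, processed pseudogenes and IDs without a name were left out, as were genes with 5 or fewer counts in any of the 6 WT hearts. The counts were tested with edgeR 4.0.16 (R 4.3.3, quasi-likelihood F-test, two-sided, TMM, robust = FALSE), with Benjamini-Hochberg adjustment over 12457 genes. The interaction of genotype and age was fitted over 12 hearts in the same way. With counts drawn from these hearts' means, 183 of 194 genes given a known 2-fold or 4-fold change were recovered in the WT comparison. There were 20 false calls beside these 183, among 12214 genes. DESeq2 recovered 177 of the 194, with 7 false calls. For the interaction in edgeR 166 of 190 were recovered, with 15 false calls among 12095 genes. Recovery of changes under 2-fold, which most DEGs had, was not tested.

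Replicates of an age differed by more than sampling noise (chi-square 4.39 to 10.3 per degree of freedom). Deviations of same-numbered hearts correlated at 0.021 to 0.133 and those of other pairs at -0.127 to 0.075. Numbers were not used to pair hearts in the main fits. Exon sequence shared with other genes was counted in stretches of 31 bases. DESeq2 1.42.0 served as an alternative, beside other scalings, filters, covariates and hearts left out. Gene lists, and the genes and hearts described, were chosen with earlier results of these data known. Genes were named from fixed genes, the 10 largest rises and falls among protein-coding genes with non-overlapping groups and a mean of at least 5 CPM, and up to 3 largest changes each way per list. A few genes that this rule selects are not reported here.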

Additional observations from a re-analysis of the deposited data

Results flagged for a closer look

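Each gene below is named above and had a change from 2 weeks to 1 month that differed between the genotypes, by edgeR's quasi-likelihood test of genotype by age in 12 hearts, with Benjamini-Hochberg adjustment. The value in brackets is the log2 fold change over age in Lmna-/- hearts minus that in WT hearts. No sample was set aside as an outlier, because each group holds 3 hearts and groups of that size were not tested. Of these 41 genes, 25 were called without WT 2 weeks replicate 2, the heart with thymus markers, 31 with Xist reads as a covariate, and 30 to 40 with any other of the 12 hearts left out. The sign was the same for all of them in each of these fits.

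The change over age lay higher in Lmna-/- than in WT hearts for Myh7 (3.49), Tpx2 (1.9), Rrm2 (1.81), Angptl4 (1.63), Anln (1.604) and Ccna2 (1.57). The same direction was found for H19 (1.13), Rbm3 (1.09), Fbn2 (1.08), Tnnt1 (0.998), Cenpa (0.94) and Postn (0.93). It was also found for Kcne1 (0.92), Mest (0.897), Hist1h1c (0.86), Cdkn2c (0.83), Gjc1 (0.69) and Igf2 (0.68). Smaller positive differences were those of Eef1a1 (0.595).

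The change over age lay lower in Lmna-/- than in WT hearts for Ogdhl (-2.301), Ces1d (-2.095), Adra1a (-1.71), Hcn4 (-1.41), Gsn (-1.14) and Hrc (-1.104). Next in size were 2310002L09Rik (-1.08), Armc2 (-1.002), Ppara (-1.001), Ivd (-0.94), Aqp1 (-0.89) and Fbln1 (-0.89). Differences of this sign were also measured for Kcnd3 (-0.797), Eef1a2 (-0.77), Kcnip2 (-0.74), Pdk2 (-0.697), Uqcrq (-0.69) and Fabp3 (-0.69). They were followed by Slc2a4 (-0.67), Uqcrfs1 (-0.65), Lamb2 (-0.49) and Etfa (-0.47).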

How the results depend on the processing

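The count of 4845 DEGs ranged from 3775 to 4598 with each heart left out, and was 3863 by DESeq2, 4309 with Xist reads as a covariate, 5299 without the filter and 5715 at an adjusted p under 0.1. No DEG changed direction under any of the alternatives run. With at least a 1.5-fold change required, 2350 genes were called, 1177 higher and 1173 lower. Called genes were higher in 52.57% of cases, and in 46.43% when scaled by library size alone, under which the median of all genes was -0.043. The count of genes that differed between genotypes over age was 888, and 543 with the Xist covariate, 1483 without the filter, 800 to 983 under the other settings, and 372 to 946 with each of the 12 hearts left out, which was added once the data had been seen. The replicate number as a replicate block gave 4928 DEGs and 983 differences. Deviations of same-numbered hearts correlated at 0.133, 0.066 and 0.021, low values that do not settle whether these hearts are paired.

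Genes not called could change sign. Ttn (-0.006) was 0.016 without the filter, 0.01 with the block, 0 with the Xist covariate and -0.119 to 0.142 with each heart left out, positive without WT 2 weeks replicate 3 or WT 1 month replicate 1 or 2. Arntl (-0.054) ranged from -0.685 to 0.313, positive without WT 1 month replicate 2 or 3, and Kcnj2 (0.056) from -0.065, without WT 1 month replicate 1, to 0.125. The causes were not tested. Leaving out genes with shared sequence gave 4550 DEGs and protein-coding genes alone 4809, both alternatives chosen after seeing the data.

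Ages lie in separate tables, so that their effects cannot be told apart in WT hearts. With 3 hearts per age, adjusted p-values rest on spread shared between genes, and genes under the count minimum were not tested.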

Other observations

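Some classes of genes outside the protein-coding one moved as well. All 3 tested genes annotated as ribosomal RNA rose, at a median log2 fold change of 4.74, and n-R5-8s1, chosen after its values were seen, read at 9.28, 16.8 and 3.66 CPM at 2 weeks and 228.8, 360.4 and 148.4 CPM at 1 month. Of 20 unprocessed pseudogenes 13 fell and none rose, at a median of -1.62, and of 8 genes of the class misc_RNA 5 fell. These classes share sequence with abundant RNAs or are targets of ribosomal RNA depletion, and misc_RNA took 0.353 to 0.388% of all reads at 2 weeks against 0.082 to 0.0974% at 1 month. Whether age or the making of the tables moved them cannot be told apart.

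Genes of the antioxidant response regulated by NRF2 rose in 12 and fell in 2 of 26 cases, with Gpx3, the secreted glutathione peroxidase, at 65.5, 39.5 and 78.2 CPM at 2 weeks and 169, 242 and 154 CPM at 1 month (log2 fold change 1.595, SE 0.19, adjusted p = 6.54e-06) and Gstm1, a glutathione transferase, up by 2.98 times, with 28.8% of its sequence shared with related genes. Genes of mitochondrial dynamics and mitophagy rose in 9 of 19 cases and fell in none, among them Mfn2, which fuses mitochondria (625, 581 and 593 CPM at 2 weeks and 974, 942 and 1002 CPM at 1 month, log2 fold change 0.697, SE 0.094, adjusted p = 2.57e-05), Sqstm1 (0.68) and Bnip3 (0.701). Among splicing regulators Ptbp1, which is replaced in differentiated muscle, fell (65.7, 68.9 and 51.5 CPM at 2 weeks and 32.1, 37.7 and 37.5 CPM at 1 month, log2 fold change -0.78, SE 0.12, adjusted p = 7.28e-05), and Celf2 and Mbnl1 rose (0.57 and 0.36). Genes of insulin and IGF signalling were called higher in 9 and lower in 3 of 20 cases, with 5 lower when WT 1 month replicate 2 was left out. The regulatory subunit Pik3r1 rose by 1.91 times, while Igf1 itself read at 111, 95.3 and 121 CPM at 2 weeks and 79.6, 128 and 68.5 CPM at 1 month and was not called (adjusted p = 0.228).

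In the fit without a filter, 612 of 11093 genes that miss the minimum count were called, 221 higher and 391 lower.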
